A study of Drosophila melanogaster with 2 samples.

Results

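The regions described here are 363 ChIP-seq peaks whose summits lay at divergent promoters, out of 2883 peaks of the Drosophila protein Senseless-2 (Sens-2) on assembled chromosomes. They were taken from the conservative list of peaks, which the authors made across both replicates by thresholding on the irreproducible discovery rate (IDR). A summit was counted as divergent when a plus-strand and a minus-strand protein-coding transcript start each lay within 500 bp of it. The rule used positions only. The other summits were called one-directional when starts lay within 500 bp on 1 strand only (814 summits) and distal when no protein-coding start was that near (1706).

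Binding was measured in whole Drosophila melanogaster embryos of 0 to 24 h from the strain sens-2-GFP, transgenic flies that express a fusion of sens-2 to eGFP, and chromatin sheared by sonication to 200 to 800 bp was precipitated with an anti-GFP antibody. The 2 samples were labelled as biological replicates of 1 group, so the design holds no treatment, genotype or time contrast. No input, mock or untagged library was analysed here, and a whole embryo mixes all its cell types, so a summit cannot be assigned to cells that express sens-2. The sources used here do not say how the transgene was built or from which promoter it is expressed.

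Senseless-2 binds DNA through zinc fingers and is a paralog of Senseless, a transcription factor that acts in the sensory organ lineage and binds sites with the core AAATCA. Divergent, or head-to-head, promoters are short stretches of DNA from which neighbouring genes are transcribed in opposite directions. In Drosophila, where the genome is compact, they are common at housekeeping genes, and many hold sites of the proteins DREF, BEAF-32 or M1BP, which act at the promoters of such genes.

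The sequences at the summits were poor in G and C. The 3 strongest members whose window lay between the starts and off annotated exons are printed first, as the clearest view of what lay under a summit. Each window is the summit base with 50 bp on either side, on the plus strand, in dm6 coordinates, read from Release 6 of the RefSeq genome, and capitals mark AAATCA or its reverse complement. They lay at chr2L:13835413-13835513, chr3R:15229471-15229571 and chr3L:5139452-5139552, with G + C contents of 29.7, 26.7 and 28.7%.
mRpS23/CenG1A: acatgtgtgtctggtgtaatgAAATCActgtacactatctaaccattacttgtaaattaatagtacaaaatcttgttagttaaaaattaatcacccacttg
Art3/mRpS10: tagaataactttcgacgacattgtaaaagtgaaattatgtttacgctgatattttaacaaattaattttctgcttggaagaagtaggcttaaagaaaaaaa
Tcs5/CHMP2B: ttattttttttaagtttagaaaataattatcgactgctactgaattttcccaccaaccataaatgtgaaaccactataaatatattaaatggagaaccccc

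The next 3 strongest windows with AAATCA, chosen from the same pool of 153 windows, which leaves out 1 chromosome arm, show the hexamer near the centre of the peak. They lay at chr2L:11106769-11106869, chr2L:421501-421601 and chr2L:12722013-12722113, and the last 2 hold it as the reverse complement. Their G + C contents were 18.8, 46.5 and 26.7%.
Reps/l(2)gd1: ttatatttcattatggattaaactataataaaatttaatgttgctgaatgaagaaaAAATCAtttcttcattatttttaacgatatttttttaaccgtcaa
CG11885/CG13692: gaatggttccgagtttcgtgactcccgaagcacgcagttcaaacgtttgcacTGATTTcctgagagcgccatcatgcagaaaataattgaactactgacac
Pih1D1/MRP: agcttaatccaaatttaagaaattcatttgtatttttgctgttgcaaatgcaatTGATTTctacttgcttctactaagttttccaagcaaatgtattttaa

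The 3 strongest windows of that pool with TATCGATA, the palindromic site of the transcription factor DREF, are shown for comparison. Capitals here mark TATCGATA. They lay at chr3L:16612367-16612467, chr3R:27607400-27607500 and chr3L:199787-199887, with G + C contents of 35.6, 43.6 and 40.6%, and none of the 3 holds AAATCA.
Su(P)/CG4101: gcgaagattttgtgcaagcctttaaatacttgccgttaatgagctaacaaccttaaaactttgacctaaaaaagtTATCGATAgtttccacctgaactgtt
dsd/Tusp: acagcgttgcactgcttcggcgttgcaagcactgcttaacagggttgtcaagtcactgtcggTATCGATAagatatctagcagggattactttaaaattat
rno/mri: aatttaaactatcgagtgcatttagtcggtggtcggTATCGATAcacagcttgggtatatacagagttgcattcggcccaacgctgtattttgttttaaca

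Ribosomal protein genes supplied 7 of the 20 members with TATCGATA, and the sites of 4 of these are printed with 10 bases on either side. The windows lay at chr3R:11216329-11216356, chrX:629460-629487, chr3R:26059293-26059320 and chrX:7901369-7901396 on the plus strand, and capitals mark the site. The centre of the site lay 55.5 bp upstream of the RpS25 start, 39.5 bp upstream of RpL34a and 51.5 bp upstream of RpS6. At RpL36 it lay inside the gene, at -9.5 bp on the same scale.
RpS25/CG4820: ctcgcctgccTATCGATAgttggtggtg
RpL36/Mybbp1A: cgtgccttatTATCGATAggcgggcggg
RpL34a/Trmt61: tattaattgcTATCGATAatttcaaaac
RpS6/bys: taccgccgcaTATCGATAgttcgtgctc

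Divergent summits made up 12.6% of all summits (363 of 2883, exact binomial 95% interval 11.4 to 13.9). Intervals of shares cover only the counting of peaks, and peaks near each other are not independent. The share was 14.0% in the thresholded list of replicate 1 (275 of 1960, 12.5 to 15.6) and 13.2% in that of replicate 2 (216 of 1636, 11.6 to 14.9). Each replicate had a thresholded list and a longer ranked list of its own. Of the divergent peaks in the thresholded lists, 249 of replicate 1 (90.5%) and 207 of replicate 2 (95.8%) overlapped a peak of the conservative list.

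Divergent and one-directional summits both took a larger share among the strongest peaks than in the whole list. Signal is the authors' value per peak, on the scale of each list, and was compared within a list. By signal, 17 of the 50 strongest peaks were divergent (34.0%, 21.2 to 48.8), as were 42 of 200 (21.0%, 15.6 to 27.3) and 167 of 1000 (16.7%, 14.4 to 19.2). One-directional summits were 18 of the 50 strongest (36.0%, 22.9 to 50.8), 70 of 200 (35.0%, 28.4 to 42.04) and 311 of 1000 (31.1%, 28.2 to 34.1), against 28.2% of all. Among ranked peaks below the threshold the divergent share was 1.10%, or 1533 of 139273. The one-directional share was also lower there, at 10.8% (15013 peaks).

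Of the 15 strongest members, 3 held a gene of the mitochondrial ribosome, and at 4 both genes carried only a CG number as their name. Over all 363 members these counts were 13 and 40 (11.02%). The summit between mRpS23 (FBgn0260407), a protein of the small mitochondrial ribosomal subunit, and CenG1A (FBgn0028509), an Arf GTPase-activating protein, had a signal of 791, with 487 in the ranked list of replicate 1 and 311 in that of replicate 2. Its peak spanned chr2L:13835341-13835573, with the summit 391 bp upstream of mRpS23 and nearer to CenG1A, upstream of its start, in intergenic sequence. The summit between Art3 (FBgn0038306), an arginine methyltransferase, and mRpS10 (FBgn0038307) had 760, with 456 in replicate 1 and 301 in replicate 2, and lay 113 and 144 bp upstream of the starts. Both pairs thus put a mitochondrial ribosomal protein gene beside a gene of another function.

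Tcs5 (FBgn0035590), which acts in tRNA modification, and CHMP2B (FBgn0035589), an ESCRT-III subunit, shared a summit of signal 759, with 476 in replicate 1 and 276 in replicate 2. CG7601 and CIA30, an assembly factor of respiratory complex I, followed with 727 (470 and 301). In both the summit was intergenic and upstream of both starts. Chro, a chromatin protein of the interband regions, and Ssl1, a TFIIH subunit, had 625 (419 and 207). There the starts were 105 bp apart and the summit lay 89 bp inside Chro, in an untranslated exon, at -89 bp on the upstream scale.

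CG5611 and Mtl had 583 (302 in replicate 1 and 279 in replicate 2). The summit of mRpL23 and CG9004 had 578 (372 and 193). Fbw5, an F-box protein, and CG9147 had 574 (380 and 184). The next in order were CG1275/Elp5 (528), where Elp5 is an Elongator subunit, Mkk4/SLIRP2 (466), where Mkk4 is a MAP kinase kinase, and CG8372/CG8360 (459). CG13390/CG17294 (452), CG3437/CG3552 (441), CG11309/CG7632 (424) and tank/CG12194 (411) completed the 15 strongest. All 15 were higher in the list of replicate 1 than in that of replicate 2, and all 15 overlapped a peak in both thresholded lists.

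As a class, divergent summits had a median signal of 92.3 (quartiles 65.9 and 146, range 3.41 to 791), one-directional summits 82.4 (62.7 and 128) and distal summits 75.4 (59.3 and 108). The order of divergent above one-directional was the same in each replicate, with 71.5 against 65.6 in the list of replicate 1 and 51.7 against 44.8 in that of replicate 2. Distal summits had 57.5 and 45.5, so that in replicate 2 they did not lie below one-directional summits. The quartiles of the classes overlapped throughout, and regions are not replicates, so the differences were not tested.

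**Figure D1:**
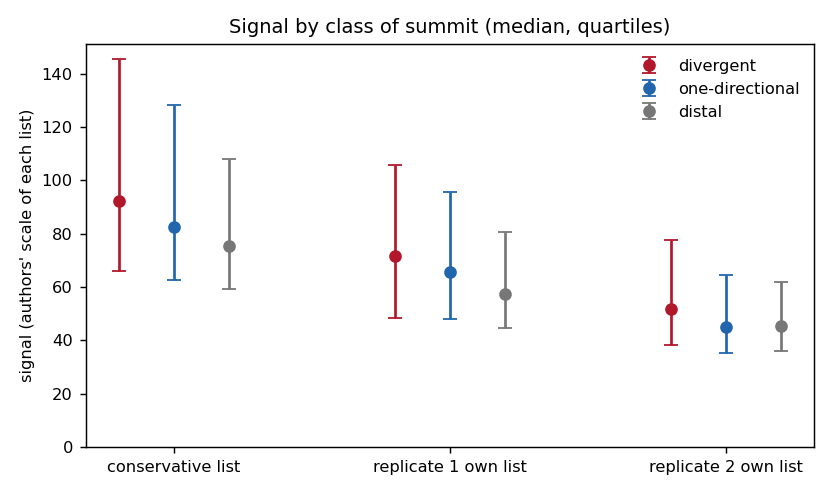
Median signal (points) with quartiles (bars) of divergent, one-directional and distal summits, on the authors' signal scale of each list (y axis, from 0), in the conservative list and in the own thresholded list of each replicate (x axis). Divergent summits have the highest median in all 3 lists, 92.3, 71.5 and 51.7, and the quartile ranges of the classes overlap.

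Nearly all members were head-to-head, and the summit lay mostly in the gap. The minus-strand start lay left of the plus-strand start at 356 of 363 members. At 285 of these 356 (80.1%, 75.5 to 84.1) the summit lay between the nearest starts and thus upstream of both starts. Other starts of the same genes can lie farther out, so such a summit can still fall inside a gene. With only the outermost start of each gene, 68.5% of divergent summits lay between the starts. At 43 it lay inside the minus-strand gene and at 28 inside the plus-strand gene, by a median of 56 bp (quartiles 26.5 and 100.5). Over all 363 members, 286 summits lay between the starts (78.8%, 74.2 to 82.9). By annotation 220 summits were intergenic (60.6%), 94 in an untranslated exon (25.9%), 48 in an intron (13.2%) and 1 in coding sequence.

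The starts of head-to-head members were a median of 287.5 bp apart (quartiles 218 and 391, range 6 to 687). The summit lay a median of 69.75 bp from the midpoint, 82.5 bp from the nearer start (quartiles 45 and 117) and 212 bp from the farther one. At 187 of 356 (52.5%, 47.2 to 57.8) it lay 50 to 150 bp upstream of the nearest start. The nearest start was on the minus strand at 185 and on the plus strand at 170. Summits with starts on 1 strand only lay a median of 113.5 bp upstream of their nearest start (quartiles 0 and 214). At head-to-head members the distance was 71 bp (17 and 112). There the nearest start was taken from both strands, so a smaller distance is partly built in. This was not corrected for.

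**Figure D2:**
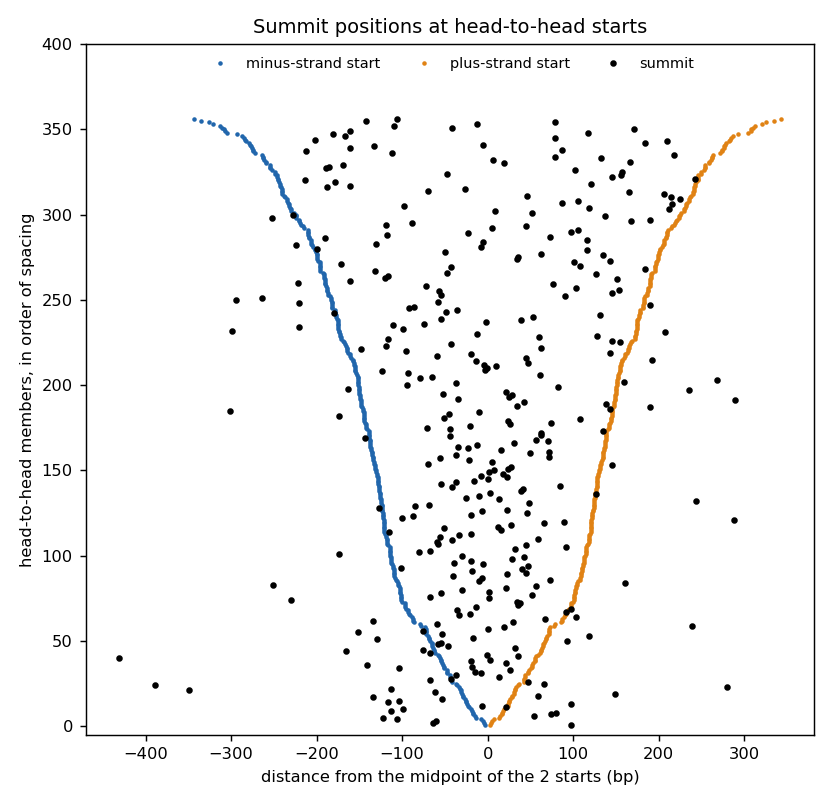
Each of the 356 head-to-head members is 1 row, in order of spacing (y axis), with the minus-strand start (blue), the plus-strand start (orange) and the summit (black) by distance in bp from the midpoint of the starts (x axis). Summits lie between the starts at 285 members, and those outside the gap are most common at the bottom, where the spacing is short.

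Spacing and position went together. With starts up to 100 bp apart, 8 of 33 summits (24.2%, 11.1 to 42.3) lay between them, compared with 25 of 40 (62.5%, 45.8 to 77.3) at more than 100 and up to 200 bp. In the next class, up to 300 bp, 109 of 124 did (87.9%, 80.8 to 93.1). Up to 400 bp it was 67 of 80 (83.8%), and up to 500 bp 45 of 48 (93.8%). Above 500 bp the rule fixes the summit between the starts. A narrow gap also leaves less room for a summit. As the gap widens it takes a larger part of the stretch that the rule allows, so a rise is partly built in. This was not corrected for. Median signal had no single direction over these classes, with 106, 96.0, 104, 78.6, 79.6 and 115 from the shortest to the widest.

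The closest starts were those of CG7246 and HP1b, a paralog of heterochromatin protein 1, 6 bp apart. Their summit had a signal of 87.8, with 58.1 in replicate 1 and 28.2 in replicate 2, and lay 100 bp upstream of CG7246, inside HP1b. SerRS, the seryl-tRNA synthetase, and CG17260 were 8 bp apart (71.5, with 39.8 and 30.6). Both summits lay 60 to 100 bp from each start and overlapped a thresholded peak of replicate 1 only.

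The widest pairs included paralogs that face each other. The starts of app, a palmitoyltransferase, and CG32100 were 687 bp apart (signal 90.1, with 67.2 in replicate 1 and 35.2 in replicate 2). Nepl19 and Nepl20, which encode neprilysin-like proteases, were 670 bp apart (95.3, with 44.3 and 46.4). Fer1HCH and Fer2LCH, the heavy and light chains of ferritin, were 652 bp apart (119, with 64.8 and 51.6). The ferritin summit lay 405 bp upstream of Fer1HCH and 247 bp upstream of Fer2LCH.

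At 7 members the starts were in the other order, with the plus-strand start left of the minus-strand start. Whether the genes themselves overlap was not measured. The starts lay farthest apart at CG44290/CG43447, at -632 bp on the spacing scale, with a signal of 53.0 (37.04 in replicate 1 and 20.2 in replicate 2). CG31808/Cyt-c-d, which holds the testis-associated cytochrome c gene, had -234 bp and 190 (126 and 64.5). SC35/eRF3, a splicing factor gene and a translation termination factor gene, had -213 bp and 64.0 (35.6 and 24.04). Of the 7, CG4741/Adck1 had the highest signal, 261, and 3 overlapped a peak in both thresholded lists.

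Peaks were up to 296 bp wide, and 304 of 363 members had this full width (83.7%). The peak covered both starts at 63 members (17.4%), exactly 1 start at 224 (61.7%) and neither at 76 (20.9%). At 345 members (95.04%) only 1 gene on each strand had a start within 500 bp. The members fell on 355 gene pairs and 729 genes.

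Most pairs had 1 summit, and 8 had a pair of them. CG3104/RpS21 had summits 444 bp apart with signals of 48.2 and 172. Pax/Alp12 had summits 204 bp apart with 121 and 42.8, and both overlapped the same peak of each replicate, so that these are not separate in the replicate lists. At Cchl/ND-42, 140up/Polr2B, Glg1/M6, Vha68-1/mTor and Mic26-27/CG5916 a summit of 51.7 to 66.9 stood 199 to 205 bp from a second of 3.41 to 8.64. These 5 weak summits and RpS6/bys (8.92) were the only members with a signal under 20, the next being 42.8.

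The 500 bp limit cut through a continuous range of distances. Just inside were the summits of yki/Gpat4, where yki encodes the Hippo pathway coactivator Yorkie, with the farther start at 492 bp and a signal of 60.3, yem/Ctl2 (488 bp, 87.7) and cnn/Golgin97 (487 bp, 55.0). Just outside were CG14968/ZnT63C (504 bp, 222), CG13531/RpL23 (505 bp, 109) and CG12929/RpL31 (510 bp, 132). The latter hold the genes of a zinc transporter and of ribosomal proteins of the large subunit.

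Members were found on all large arms. There were 77 on 2L, 67 on 2R, 78 on 3L and 105 on 3R, or 12.5 to 16.0% of the summits of each arm, and 36 on X (7.23% of 498). Chromosome 4 had no summit in the list and Y had 1, which was not divergent. X also had a smaller part of the annotated head-to-head pairs with a summit, 39 of 403 (9.68%), against 12.5 to 15.6% on the other arms. These shares were not tested.

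Genes with a divergent partner had a promoter summit more often than other genes. Of 5141 protein-coding genes with a start of the other strand within 1000 bp, 899 had a summit within 500 bp of a start (17.5%, 16.5 to 18.6), against 585 of 8827 without such a partner (6.63%, 6.12 to 7.17) and 10.6% of all 13968 genes. In the list of replicate 1 the shares with and without a partner were 13.1% and 4.55%, and in that of replicate 2, which holds fewer peaks, 10.8% and 4.38%. In the stronger peaks of the conservative list they were 10.6% and 3.72%. A gene beside a partner can be counted through a summit that lies nearer to that partner, and partnered genes had 1.47 annotated starts each against 1.37, and the part of either in the difference was not tested. Divergent summits in particular touched 729 genes, 5.22% of all protein-coding genes.

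Seen from the annotation, 368 of 2667 gene pairs with head-to-head starts at most 1000 bp apart had a summit within 500 bp of both starts (13.8%, 12.5 to 15.2). The share was highest at a spacing over 200 and up to 300 bp, with 130 of 542 pairs (24.0%, 20.4 to 27.8). It was 14.2% (11.1 to 17.9) up to 100 bp and 10.6% (7.64 to 14.3) from there up to 200 bp. In the next wider classes, up to 400 and up to 500 bp, it was 17.5% (13.9 to 21.6) and 16.1% (11.9 to 21.1). The interval of the highest class did not overlap those of the shorter classes and overlapped those of the next wider ones. Above 500 bp 3.87% had a summit, where the rule leaves a smaller stretch in which a summit can count.

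**Figure D3:**
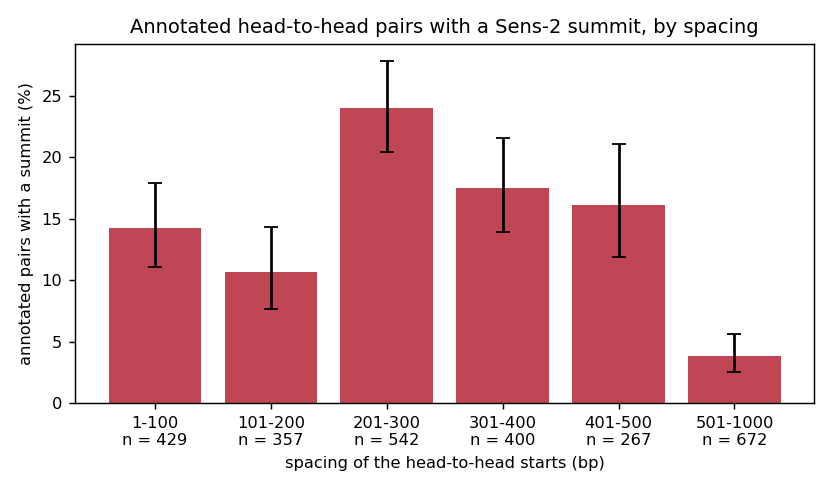
Share of annotated head-to-head gene pairs with a Sens-2 summit within 500 bp of both starts (y axis, percent) by the spacing of the starts in bp (x axis, with the number of pairs), with exact binomial 95% intervals that cover counting of pairs only. The bar of the pairs spaced over 200 and up to 300 bp reaches 24.0%, against 14.2 and 10.6% at shorter spacing.

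Cytosolic ribosomal protein genes were the list with the largest share of divergent summits. Of 84 such genes 27 had one (32.1%, against 5.22% of all protein-coding genes). A divergent partner was present at 52 of the 84 (61.9%, against 36.8% of all genes). Among partnered genes alone, 51.9% of this list had a divergent summit, against 14.2% of all. A promoter summit of any kind was found at 58 of the 84 (69.05%), so 27 of 58 such genes had a divergent one, against 729 of 1484 over all genes. The strongest were at RpS27 (FBgn0039300), paired with the nucleoporin gene Nup37, with a signal of 297 (183 in replicate 1 and 123 in replicate 2), at RpL32, paired with CG7943, with 255 (141 and 117), and at RpL7, paired with Ripalpha, with 250 (145 and 113). Dref, which encodes the DREF protein itself, shared a summit of 200 (104 and 89.2) with RpL13. The list was made with frequent binding at these genes already known from the same peaks, so the count is no independent support for it.

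At these genes the summit sat on the ribosomal side of the pair. They had 28 members, with RpS21 counted for both of its summits, and the ribosomal protein gene had the nearer start at 26 of 28. The nearer start was a median of 33 bp away. The RpS27 summit lay 4 bp inside RpS27 and 148 bp from Nup37, and the RpL13 summit 5 bp inside RpL13 and 89 bp from Dref. The median signal of the 28 was 129, against 90.7 in the other 335 members, and 20 of the 28 overlapped a peak in both thresholded lists.

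Mitochondrial ribosomal protein genes had 13 of 73 with a divergent summit (17.8%), against 5.22% of all protein-coding genes. A divergent partner was present at 58 of the 73 (79.5%), against 36.8% of all genes. Among partnered genes alone, 22.4% of this list had a divergent summit, against 14.2% of all. They included mRpS23, mRpS10 and mRpL23, described above, and mRpL24 (246, with 144 in replicate 1 and 99.4 in replicate 2). Their median signal was also 129, with a range of 51.1 to 791. Here the listed gene had the nearer start at 4 of 13, and the nearer start was a median of 103 bp away. Of the 14 genes of this list with any promoter summit, 13 had a divergent one.

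The other lists of general cell functions had shares nearer to the 5.22% of all genes. By the rule only a gene with a divergent partner can have such a summit, and 14.2% of all partnered genes had one. Among partnered genes alone, translation factors had 21.4%, aminoacyl-tRNA synthetases 17.4% and oxidative phosphorylation 15.9%. The shares over all genes of these lists follow. Translation factors had 6 of 54 (11.1%), the strongest at eIF4EHP, a cap-binding repressor of translation (242, with 167 in replicate 1 and 76.0 in replicate 2). Aminoacyl-tRNA synthetases had 4 of 33 (12.1%), led by GluProRS (234, with 151 and 72.01). Oxidative phosphorylation had 7 of 87 (8.05%), led by ND-ASHI, a subunit of complex I (240, with 179 and 63.5), paired with the fumarase gene Fum1. These lists are small, so a few pairs decide their shares.

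DNA replication and cell cycle genes had 5 of 48 (10.4%), the strongest at PolD2, a subunit of DNA polymerase delta (402, with 259 in replicate 1 and 148 in replicate 2). RPA1 and Mcm2, a single-strand binding protein and a subunit of the replicative helicase, shared a summit of 81.9 (60.1 and 23.0). Splicing had 3 of 29 (10.3%), led by snRNP-U1-C (146), and the transcription machinery 7 of 79 (8.86%), led by the Mediator gene MED27 (109). Vesicle traffic had 6 of 77 (7.79%), led by Vps33B (145). The proteasome had 2 of 48 (4.17%), at Rpn3 (118) and Rpn6 (78.6), and mitochondrial import 1 of 15, at Tom7 (116).

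The remaining lists hold regulated or tissue-specific genes. Heat shock genes had 1 of 26 with a divergent summit (3.85%, against 5.22% of all protein-coding genes), at Hsc70-5 (80.3). The Notch pathway and E(spl) complex had 2 of 22 (9.09%), at aph-1, a subunit of gamma-secretase (117), and E(spl)mdelta-HLH, a bHLH repressor (71.4). Of the 9 and 7 partnered genes in the heat shock and Notch lists, 11.1 and 28.6% had one, against 14.2% of all partnered genes. Sensory precursor and proneural genes had 0 of 19, Hox genes and cofactors 0 of 10 and chemosensory receptors 0 of 180. Few genes of these 3 lists had a divergent partner at all, 2, 1 and 27.

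In all, 84 of 363 members (23.1%) had a gene of the lists. At 3 both genes were listed. They were RpL28/eIF1, with a signal of 161, RPA1/Mcm2 and Cdk1/mRpS7, with 55.6. At 40 members (11.02%) both genes carried only a CG number as their name, and at 184 (50.7%) neither did. The same shares over all annotated pairs are not given here, so these counts describe the members only.

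Summits at divergent promoters were richer in A and T than one-directional summits. Within 50 bp of the summit the median G + C content was 32.7% (quartiles 26.7 and 40.6), against 37.6% (30.7 and 47.5) at one-directional and 34.7% (29.7 and 42.6) at distal summits. A G + C content under 30% was found at 151 members (41.6%), 198 one-directional (24.3%) and 491 distal summits (28.8%). A and T were balanced at members, with 32.8% each, as were C and G with 17.2% each.

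The same dip was present at divergent promoters without a summit. In 50 bp bins, mean G + C content rose from 33.6% at the summit to 38.7 and 38.2% at 100 bp and 49.9 and 49.3% at 500 bp on the left and right. Around the midpoints of the 2299 annotated pairs without a summit it was 33.9% at the centre and 48.01 and 48.9% at 500 bp. Within 50 bp of the midpoint, pairs with a summit had a median of 28.7% and pairs without one 32.7%. These groups also differed in spacing, with medians of 261.5 and 313 bp. Over all annotated pairs the midpoint value varied with spacing. Its medians were 44.6, 40.6, 25.7, 27.7, 27.7 and 32.7% from the shortest to the widest class. The part of spacing in the difference was not tested. One-directional summits had 38.9% at the centre and 41.98 and 43.0% at 500 bp.

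**Figure D4:**
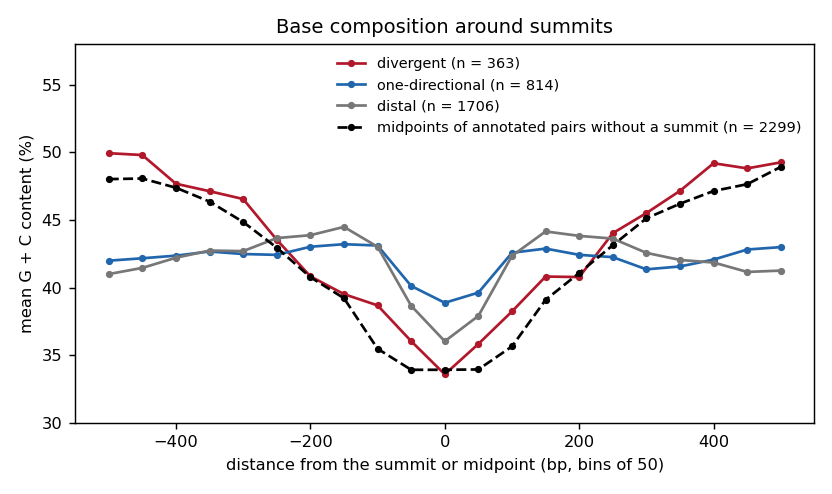
Mean G + C content (y axis, percent, from 30) in 50 bp bins by distance in bp from the summit (x axis) for divergent, one-directional and distal summits, and from the midpoint of the starts for annotated head-to-head pairs without a summit (dashed). Divergent summits fall from 49.9% at the left edge to 33.6% at the centre, and the pairs without a summit, which have 33.9% at their centre, run close to them.

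The Senseless core AAATCA was no more frequent at divergent summits than at the others. On either strand it lay within 50 bp of 62 of 363 members (17.1%, 13.4 to 21.4), against 17.9% of all summits, 18.4% of one-directional and 17.9% of distal ones. At midpoints of annotated pairs without a summit 11.8% held it (10.5 to 13.2), and at midpoints of pairs with one 15.2% (11.7 to 19.3). Midpoint windows are centred on another point than summit windows, so these shares are not directly comparable with those at summits. The nearest AAATCA was centred a median of 20.5 bp from the summit (quartiles 9.75 and 33). The median signal was 81.8 (quartiles 67.4 and 115) at members with the hexamer and 94.3 (65.5 and 154) at the rest.

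The DREF site TATCGATA was found at a larger share of members than of other summits. It lay within 50 bp of 20 of 363 members (5.51%, 3.40 to 8.38), against 1.25% of all summits, 1.60% (0.853 to 2.72) of one-directional and 0.176% of distal ones. At midpoints of annotated pairs without a summit 5.18% held it (4.31 to 6.16), and at midpoints of pairs with a summit 2.99% (1.5 to 5.29). Windows at midpoints and at summits are centred on different points, so these shares are not directly comparable with that of the members. The site was centred a median of 22 bp from the summit. The median signal was 75.2 at members with the site and 93.6 at the rest, with overlapping quartiles.

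The strongest of these 20 were RpL41/NaCP60E, with a signal of 197 (106 in replicate 1 and 81.7 in replicate 2), and RpS25/CG4820, whose site is printed above, with 167 (97.7 and 64.6). Mob2/CG7394, where Mob2 encodes a kinase cofactor, had 152 (87.8 and 79.9). Of the printed members, RpL36/Mybbp1A had 77.0, RpL34a/Trmt61 58.3 and RpS6/bys 8.92. AAATCA and TATCGATA were both present at 2 members, wmd/levy and CG14817/CG14805.

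For 2 of 8 further motifs the intervals of members and one-directional summits did not overlap. The homeodomain site TAATTA was at 13.8% of members (10.4 to 17.8), 8.11% (6.33 to 10.2) of one-directional and 7.62% of distal summits. At midpoints it was at 10.7% (9.47 to 12.04) of pairs without a summit and 14.9% (11.5 to 19.0) of pairs with one. GAGAG, bound by GAGA factor, was at 7.44% of members (4.96 to 10.6), 13.9% (11.6 to 16.5) of one-directional and 11.6% of distal summits. At midpoints it was at 7.57% (6.52 to 8.73) and 8.42% (5.80 to 11.7). Members with TAATTA had a median G + C content of 28.7% and those without it 33.7%. For GAGAG these values were 33.7 and 32.7%. The part of base composition in the shares of both motifs was not tested.

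For the other motifs the intervals overlapped. TATAAA, the letters of the TATA box, was at 22.9% of members (18.6 to 27.5) and 17.1% (14.6 to 19.8) of one-directional summits, with 22.01 and 27.2% at midpoints without and with a summit. The E-box CAGCTG was at 6.61% (4.28 to 9.68) and 3.69% (2.50 to 5.22), with 6.57 and 7.88% at the midpoints. The M1BP core GGTCACAC was at 2.20% (8 members, 0.956 to 4.30) and 0.737% (0.271 to 1.60), with 3.09 and 1.09% at the midpoints. GATAAG, the GATA factor site, was at 6.61 and 6.27%, with 6.87 and 5.71% at the midpoints. CATAAA and TACAAA are shuffled controls with the letters of AAATCA. They were at 11.3 and 12.9% of members, 12.3 and 12.4% of one-directional summits and 12.7 and 14.6% of midpoints without a summit. AAATCA itself was at 17.1, 18.4 and 11.8% of these groups in the same order. All motifs were searched on both strands, the AT-rich ones can overlap each other, and a match of letters is a description.

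The strongest and weakest members differed in more than signal. The members were divided by signal into 3 classes of 121. In the strongest class (signal 122 to 791) the median G + C content was 29.7%, in the middle one 32.7% and in the weakest (3.41 to 73.4) 37.6%. The summit lay a median of 52.5, 72.5 and 103.5 bp from the midpoint in the same order, and between the starts at 83.5, 77.7 and 75.2%. AAATCA was present at 12.4, 20.7 and 18.2%, and TATCGATA at 3.31, 4.96 and 8.26%. The classes were made from signal, and the trends were not tested.

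Both replicates had a peak of their own at about every other member. Of 363 members, 175 (48.2%, 43.0 to 53.5) overlapped a peak in the thresholded lists of both replicates, against 40.5% of all summits, 44.7% (41.3 to 48.2) of one-directional and 36.9% (34.6 to 39.3) of distal ones. A further 69 overlapped a peak of replicate 1 only, 34 of replicate 2 only and 85 of neither (23.4%). The share went with signal, at 95.9% in the strongest of the 3 classes, 45.5% in the middle and 3.31% in the weakest. Members in both lists had a median signal of 150 (quartiles 114 and 219) and those in neither 59.1 (53.0 and 65.0).

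The strongest member in neither thresholded list was CG1602/PIG-G, with a signal of 107 (55.9 in the ranked list of replicate 1 and 37.7 in that of replicate 2). It was followed by Pex13/fsd, where Pex13 is a peroxisome import factor, with 82.1 (46.2 and 27.2). MED30/Rev1, a Mediator subunit and a DNA polymerase, had 81.0 (40.8 and 40.2). Rbbp5/eRF1 had 78.8, with 32.4 in replicate 2 and no overlapping peak in replicate 1. Rpn6/ave had 78.6 (45.1 and 26.6).

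In the longer ranked lists 357 members had an overlapping peak in both replicates. Across these, Spearman's rho of the replicate signals was 0.728 and Pearson's r of log2 signal 0.835 (n = 357 peaks, which are not independent replicates and share local features of the genome). For one-directional summits the values were 0.688 and 0.820 (n = 801) and for distal ones 0.608 and 0.774 (n = 1693). The signal was higher in replicate 1 at 301 of 357 members, with a median ratio of 1.48, but each list has its own scale, so the ratio is no difference in binding.

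**Figure D5:**
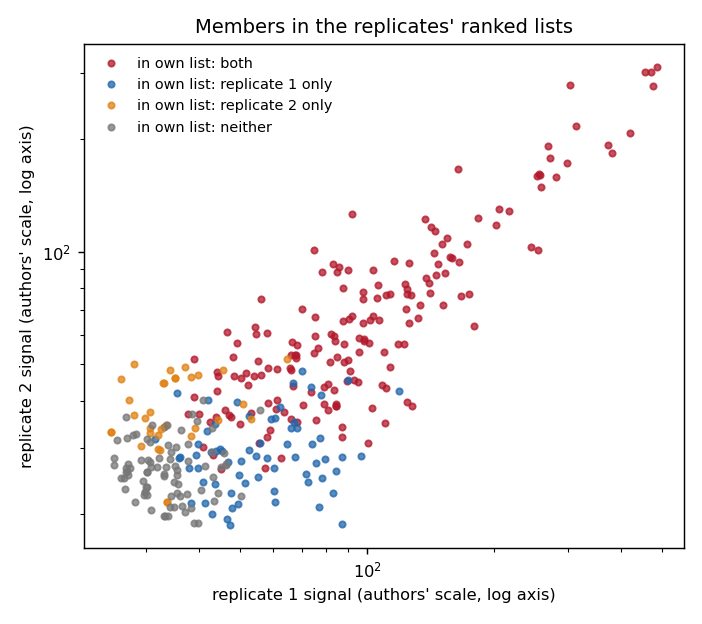
Signal of the 357 members with a peak in both ranked lists, replicate 1 (x axis) against replicate 2 (y axis), on the authors' scale of each list and on log axes, coloured by presence in the thresholded lists. The members in both thresholded lists reach 487 and 311, and those in neither cluster at low signal in both replicates.

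The position of the summit was much the same in both replicates. At the 172 head-to-head members in both thresholded lists, the summits of the replicates' own peaks lay a median of 20 bp apart (quartiles 8 and 41). The replicate 1 summit lay a median of 58.5 bp from the midpoint and the replicate 2 summit 60.5 bp. They lay between the starts at 140 (81.4%) and 142 (82.6%) of the 172. These members and peaks were chosen through the list made across both replicates, so their positions are no independent check. Among all divergent summits of each replicate's own thresholded list, 82.5% lay between the starts in replicate 1 and 78.7% in replicate 2.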

How the data were processed

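Peak lists of 2 biological replicates on dm6 were used. Each gives the authors' signal per peak on its own scale, and a deposited whole-number score made from the IDR. The deposited offset of the summit was added to the peak start. Per the labels and deposited text files, lists were made per replicate and across both, and replicate numbers come from the labels. No aligner or peak caller is named in the sources used here. The depth of the libraries is unknown, and intervals cover counting only.

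Of the 2899 peaks in the conservative list, 16 on unplaced scaffolds were left out. Starts came from Ensembl release 115 (BDGP 6.54), and sequence from RefSeq Release 6, which shares dm6 coordinates. Lists were joined by overlap of at least 1 bp. Shares have exact binomial (Clopper-Pearson) 95% intervals from scipy 1.17.1, and pandas 2.3.3 and numpy 2.4.6 were used. With 1 group and no counts, no test was run. The summit rule, overlap and motif search were checked on simulated data.

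Named were the 15 strongest members, the shortest and widest pairs, the starts in the other order, up to 3 members per gene list, pairs with a second summit, summits next to the 500 bp limit and members in neither replicate's list. 1 of the shortest pairs is not reported here. Values for Dref/RpL13, RPA1/Mcm2, Cdk1/mRpS7, RpL28/eIF1 and members with TATCGATA were picked after they were seen. The members and the 16 gene lists were chosen with earlier results of these data known.

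Results were recomputed with each replicate's list, the other thresholded list, limits of 250 and 1000 bp, outermost starts only, the stronger peaks, narrower (51 bp) and wider sequence windows and an overlap of 50%. Leaving out peaks of signal under 20 was chosen after seeing the data.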

Additional observations from a re-analysis of the deposited data

Results flagged for a closer look

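Data outside the comparisons above held a few more peaks at divergent starts. The ranked list across both replicates held 75 peaks on assembled chromosomes that reached the lowest score of the conservative list but are absent from it. By the same rule 5 of these 75 lay at divergent starts, against 363 of 2883 (12.6%) in the conservative list. They were at Dph4/RpL13A (signal 197), crp/pkaap (97.7), Sirt6/pont (93.5), Pgk/Bacc (67.3) and the histone genes His4:CG31611/His3:CG31613 (49.8). Their median signal was 93.5 on the scale of the ranked list, and the step that removed them is not given in the sources used here.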

How the results depend on the processing

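Of 97 recomputed values 65 stayed within their range and 32 moved, and the part of each setting beyond its own construction was not tested. With each replicate's own list in place of the conservative one, the number of divergent summits ranged from 216 to 275 and their share from 13.2 to 14.0%. The median spacing, here over all divergent summits and both orders of starts, ranged from 270.0 to 277 bp. In the report's setting this median was 284 bp. The share of partnered genes with a promoter summit ranged from 10.8 to 13.1%. That share was 18.6% with the other thresholded list. A window of 250 bp left 215 members (7.46%), with a median spacing of 242 bp, a signal ratio to one-directional summits of 1.33 (1.12 in the report's setting), a G + C content of 29.7%, 54.9% in both replicates and 15.7% of partnered genes. A window of 1000 bp gave a share of 17.0%, 73.6% between the starts and 327 bp. With outermost starts only these were 68.5% between the starts and 259.5 bp, with 15.5% of partnered genes. The stronger peaks of the list held 224 members (15.5%), with 269.5 bp, a ratio of 1.04, 74.6% in both replicates and 10.6% of partnered genes. In 51 bp windows AAATCA fell to 9.09% and TATCGATA to 2.75% of members. Within 100 bp of the summit they stood at 28.4 and 11.3%, with a G + C content of 34.8%. An overlap of 50% put 40.5% of members in both replicates. Without peaks of signal under 20, 357 members were left and none of the 10 values moved. No paired analysis was possible because the design holds 1 group.

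Peak lists without an input, mock or untagged library limit these results, since signal from open promoter chromatin and signal from Sens-2 cannot be told apart. Shares depend on annotated starts, which were not measured in these embryos.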

Other observations

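The members with a cytosolic ribosomal protein gene differed in sequence from the rest, a split made after the values were seen and not tested. Their median G + C content around the summit was 47.5%, against 31.7% in the other 335 members, and AAATCA was present at 2 of 28, against 60 of 335. TATCGATA was present at 7 of 28 (25%, exact binomial 95% interval 10.7 to 44.9), against 13 of 335 (3.88%, 2.08 to 6.54). One-directional summits had the same order, with 5 of 32 at ribosomal protein genes (15.6%, 5.28 to 32.8) and 8 of 782 elsewhere (1.02%, 0.443 to 2.01). At the midpoints of 26 annotated pairs with a ribosomal protein gene and no summit 2 held the site (7.69%, 0.946 to 25.1). The summits at ribosomal protein genes lay closer to a start, so their windows reach further into transcribed sequence, and the part of position in these values was not tested.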
